A study of Mus musculus with 6 samples.

Results

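The 35 genes described here encode soluble hydrolases of the lysosome, proteins of its membrane and the MiT/TFE transcription factors, and they were chosen by name from the 22248 genes of the deposited table of mouse bone-marrow-derived macrophages (BMDMs). Their roles comprise lysosomal membrane proteins (*Lamp1*, *Lamp2*, *Scarb2*, *Npc1*, *Cln3*, *Mcoln1*), lipid transfer and activator proteins with progranulin (*Npc2*, *Psap*, *Grn*), sphingolipid and ganglioside hydrolases (*Gla*, *Galc*, *Glb1*, *Hexa*, *Neu1*, *Arsa*, *Smpd1*, *Asah1*), glycosaminoglycan hydrolases (*Idua*, *Ids*, *Naglu*, *Sgsh*, *Gusb*, *Arsb*), glycogen and glycoprotein glycosidases (*Gaa*, *Fuca1*, *Manba*, *Man2b1*), lipases (*Lipa*, *Pla2g15*), peptidases with a thioesterase (*Tpp1*, *Lgmn*, *Ppt1*) and the factors *Tfeb*, *Tfe3* and *Mitf*. All 35 were listed and all 35 passed the filter on low values.

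The RNAseq data compare unstimulated BMDMs of 2 genotypes, with 3 libraries each, to find genes whose RNA depends on CITED2, a transcriptional coregulator. Control cells came from *Lyz2*cre mice and CITED2-deficient cells from *Cited2* fl/fl:*Lyz2*cre mice. All mice were on a C57BL/6 background and carried 1 *Lyz2* Cre allele, the deficient mice had both *Cited2* alleles floxed, and the labels give postnatal week 10 while the study's methods give a younger age. Marrow cells were grown ex vivo with macrophage colony-stimulating factor. Cre is made from the myeloid *Lyz2* locus, and removes the floxed part of *Cited2* in cells that make it, and the titles of the deficient samples also hold the word "Control". Nothing in the labels says whether replicates came from separate mice, so p-values measure the spread between these libraries, which may be technical. In RNA of a whole culture, fewer cells of a type and less RNA per cell cannot be told apart.

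Lysosomes are acidic organelles in which hydrolases break down material taken up by phagocytosis, endocytosis and autophagy, and macrophages are rich in them. Most soluble hydrolases receive a mannose 6-phosphate tag in the Golgi and are carried to the lysosome by receptors, while membrane proteins protect the limiting membrane, export products and pass ions. TFEB, TFE3 and MITF are basic helix-loop-helix leucine zipper proteins that bind E-box sequences in the promoters of many lysosomal genes, and in fed cells kinase signaling at the lysosome keeps them in the cytosol.

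RNA levels of the lysosomal genes moved in both directions in CITED2-deficient BMDMs, by less than 2-fold for each of the 35, with 1 exception under another scaling (*Npc2*, log2 fold change 1.03 after median-ratio scaling). *Npc2* rose most, from a mean of 476 to 908 FPKM (fragments scaled to transcript length and library size, so that genes of different length can be compared), and *Grn*, *Gla* and *Lamp2* also rose. *Idua*, *Pla2g15*, *Sgsh* and *Galc* had the falls of over 0.5 on the log2 scale. Of the 35 genes, 8 rose, 18 fell and 9 did not pass an adjusted p of 0.05 in limma on log2(FPKM + 1), with Benjamini-Hochberg adjustment over the 11687 genes whose mean FPKM was 1 or more. The share called was 74.3% of the lysosomal genes and 51.3% of all genes tested, where 16.7% of all genes tested rose and 34.6% fell. Among the 8712 genes with a mean FPKM of 5 or more, 1505 rose and 3481 fell, and 8 lysosomal genes rose and 18 fell. The part of RNA level in the gap between these shares was not tested. Control and deficient libraries did not overlap for 28 of the 35 genes (80.0%), against 59.9% of all genes tested. The median log2 fold change (deficient minus control, the direction of every fold change below) was -0.08 over the 35 genes and -0.101 over all genes tested. Fold changes on this scale understate the change of genes with low values.

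The direction of small changes depended on how libraries were scaled. With median-ratio scaling, in which every library is brought to a common level by the median of its genes' ratios to their geometric means, fold changes of all genes shifted up by 0.0938 at the median, the share of rises among called genes went from 32.5% to 52.0% over all genes, and from 30.8% to 54.2% over the lysosomal genes, of which 13 then rose and 11 fell. That scaling turned *Scarb2*, *Glb1*, *Hexa* and *Tpp1* from lower to higher without a call, ended the calls of *Lamp1*, *Neu1*, *Arsa*, *Smpd1*, *Tfeb* and *Tfe3*, and added rises of *Cln3*, *Psap*, *Naglu*, *Fuca1* and *Man2b1*. Across every alternative run, 18 of the 35 genes kept their call and direction, 7 of them higher (*Lamp2*, *Npc2*, *Grn*, *Gla*, *Gusb*, *Manba*, *Mitf*) and 11 lower (*Npc1*, *Mcoln1*, *Galc*, *Asah1*, *Idua*, *Ids*, *Sgsh*, *Gaa*, *Pla2g15*, *Lgmn*, *Ppt1*).

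**Figure D1:**
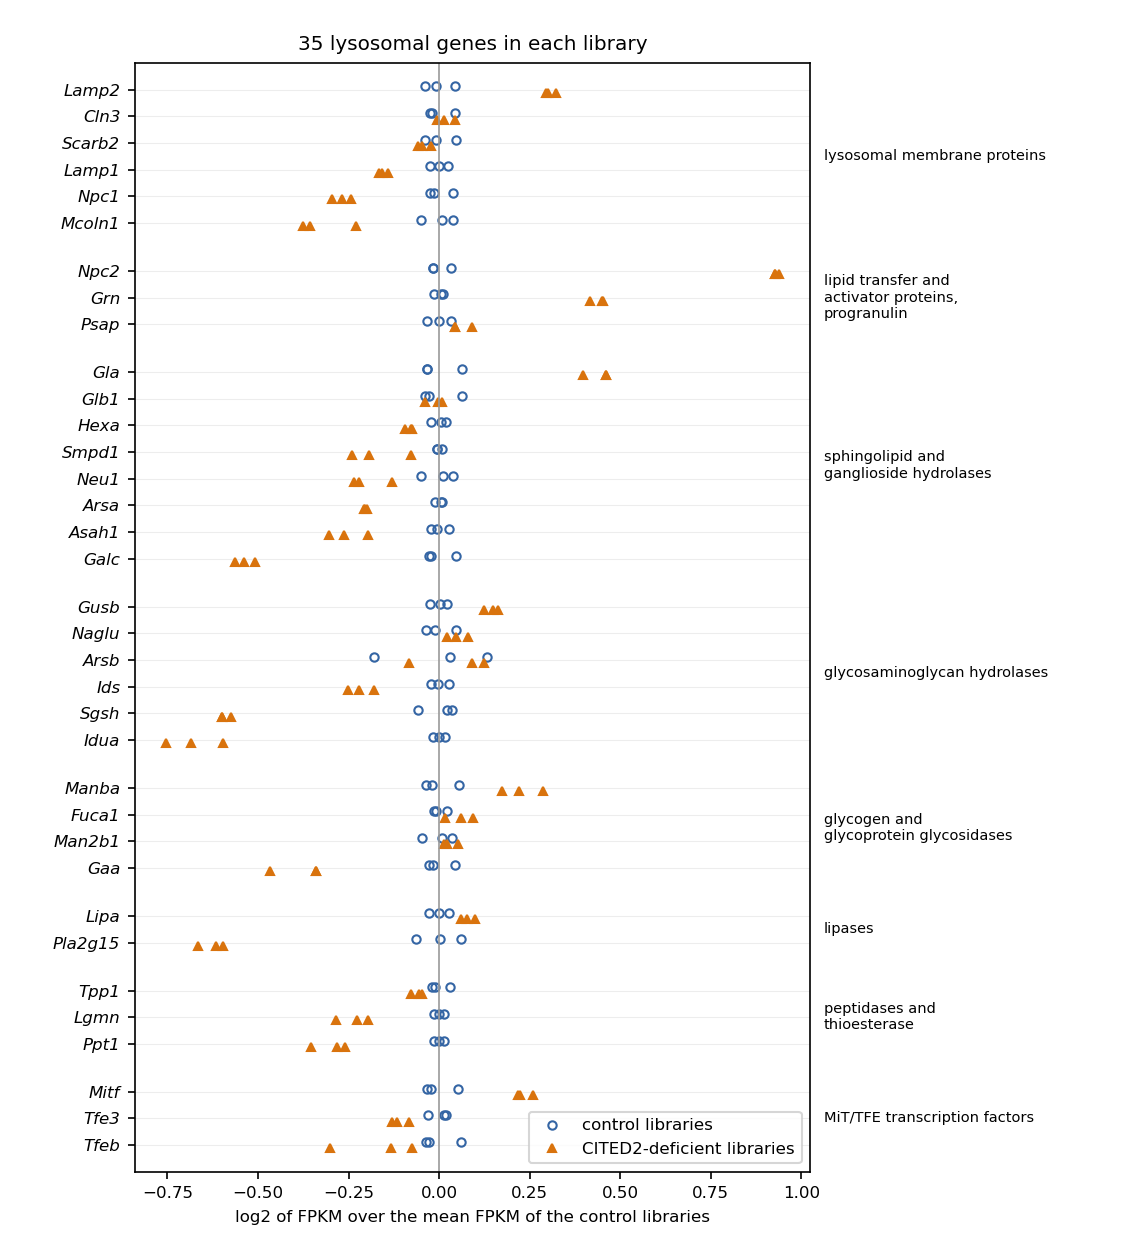
Level of each of the 35 genes in each library, as log2 of FPKM over the control mean (x axis), with genes on the y axis grouped by role. Circles are the 3 control and triangles the 3 CITED2-deficient libraries. *Npc2* lies farthest to the right and *Idua* farthest to the left, and the symbols of the 2 groups do not overlap for 28 genes.

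**Figure D2:**
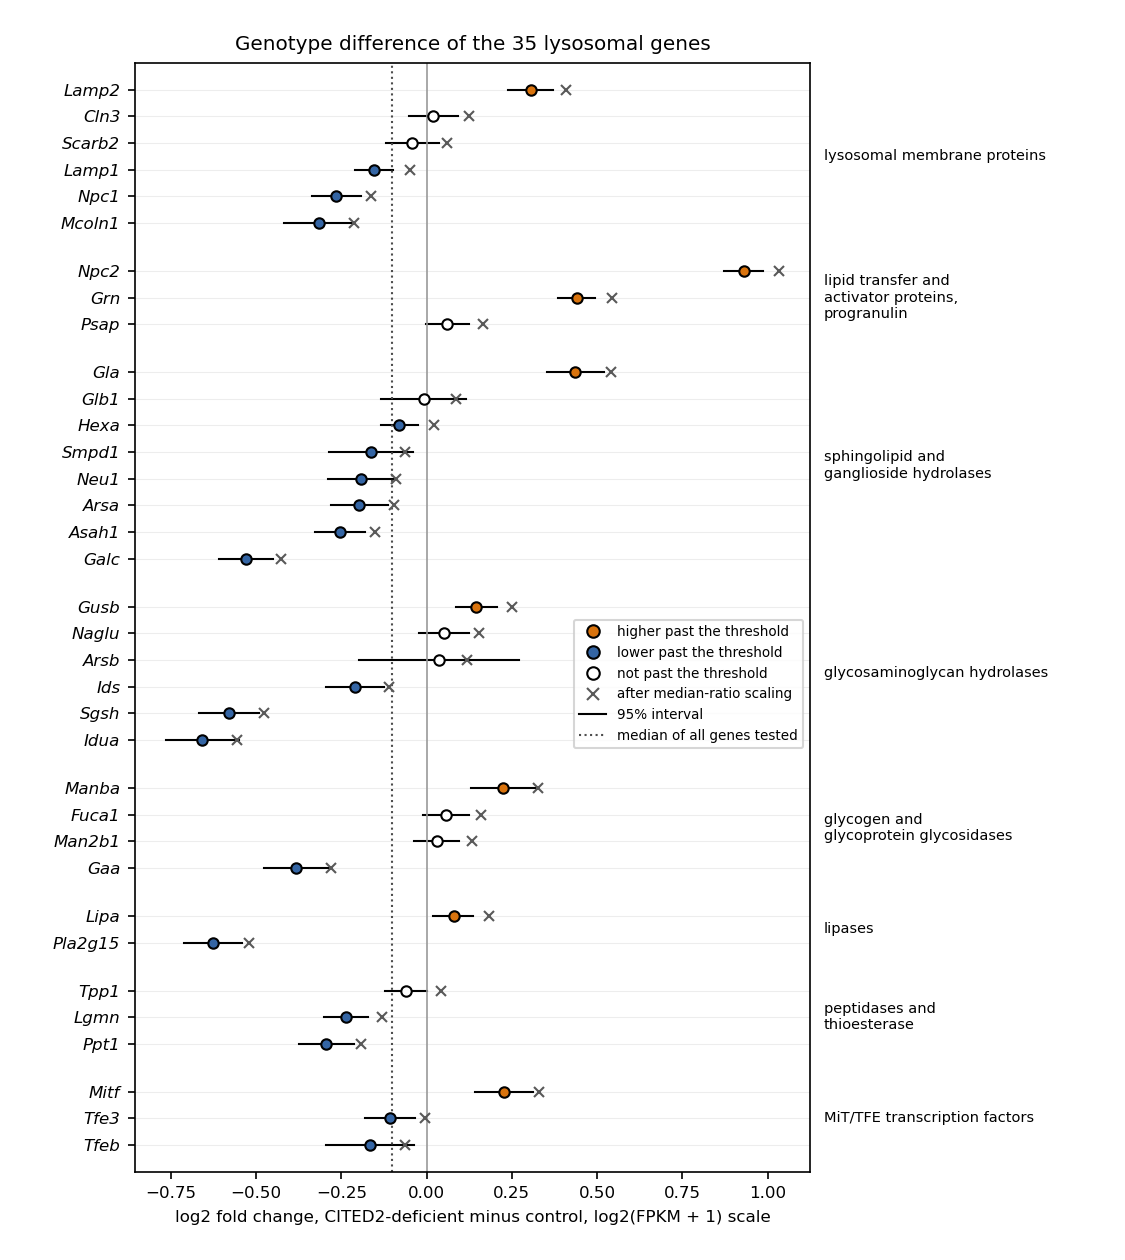
Log2 fold change (x axis, deficient minus control on the log2(FPKM + 1) scale) of each gene from limma with its 95% interval. Filled points passed an adjusted p of 0.05 (orange 8 higher, blue 18 lower), open points did not, crosses give the value after median-ratio scaling, and the dotted line is the median of all genes tested at -0.101.

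The genotype was visible in each library, since *Cited2* was lower in every deficient library than in every control library (means of 8.01 ± 1.1 and 75.5 ± 3.79 FPKM, SD, n = 3 each). Depth recovered from the FPKM steps was 17289286 to 18952077 fragments in control and 22583995 to 26100410 in deficient libraries. The lysosomal genes had 181 to 404296 fragments per library, and 32 of them had over 1000 in every library. Their coefficient of variation between libraries had a median of 2.44% in control and 1.91% in deficient BMDMs. Macrophage markers differed widely in level, from *Lyz2* (means of 31.3 FPKM in control and 9.75 in deficient BMDMs) to *Adgre1* (2214 and 1776). The summed level of 8 of them was 4337 to 4394 FPKM in control and 3673 to 3752 in deficient libraries. Of the 8, 6 fell (*Adgre1*, *Csf1r*, *Itgam*, *Mertk*, *Lyz2* and *Mrc1*), 1 rose (*Fcgr1*) and 1 did not pass. *Lyz2* is also the locus of the Cre allele in both genotypes, and the part of that allele in its level was not tested. Of the 10 fibroblast or stromal markers, 8 were tested and all 8 rose, and their sum was 46.5 to 56.1 FPKM in control and 186 to 563 in deficient libraries, highest in deficient replicate 1, where *Col1a1* was at 305. Without that library 7 of the lysosomal genes rose and 16 fell. Of 9 neutrophil or granulocyte precursor markers tested, 7 fell and 1 rose (*Ltf*), with sums of 744 to 813 and 662 to 780.4 FPKM. These sums came mostly from *S100a8*, *S100a9*, *Ngp* and *Ltf*. The largest falls were those of *Mpo* (16.2 to 1.95 FPKM), *Prtn3* (14.3 to 2.52), *Elane* (12.4 to 2.15) and *Ctsg* (4.22 to 0.626). Markers of B, T and NK cells, dendritic cells, mast cells and red cells summed to at most 3.29 FPKM each in any library, and the 8 osteoclast markers to 69.8 to 73 FPKM in control and 79.3 to 84 in deficient libraries, with 1 higher (*Ctsk*) and 2 lower of 4 tested, *Oscar* at or near 0 and *Calcr* and *Ocstamp* not listed. The part of these cells in the lysosomal results was not tested.

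The RNA level of the 35 genes ranged over more than 3 orders of size. *Psap* was highest in both genotypes, with 5516 ± 126 FPKM in control and 5753 ± 109 in deficient BMDMs (rank 6 of all genes by mean FPKM), and *Grn* was next (rank 19). *Lgmn* and *Lamp1* had ranks 3 and 4 of the 35 in control (1644 ± 15.1 and 1582 ± 28.1 FPKM) and changed places in deficient BMDMs, where their means lay within 1 SD of *Lgmn* (1397 ± 42.6 and 1421 ± 12.1). *Npc2* moved from rank 8 to rank 6 of the 35, passing *Hexa* and *Man2b1*, and *Gla* moved from rank 19 to rank 14, while *Galc* moved from rank 20 to rank 26. *Npc1* and *Gaa* had the same control mean of 137 FPKM and did not differ beyond their spread there. *Smpd1*, *Glb1* and *Arsb* were the lowest 3 in both genotypes, *Arsb* with 3.26 ± 0.348 and 3.37 ± 0.25 FPKM.

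**Figure D3:**
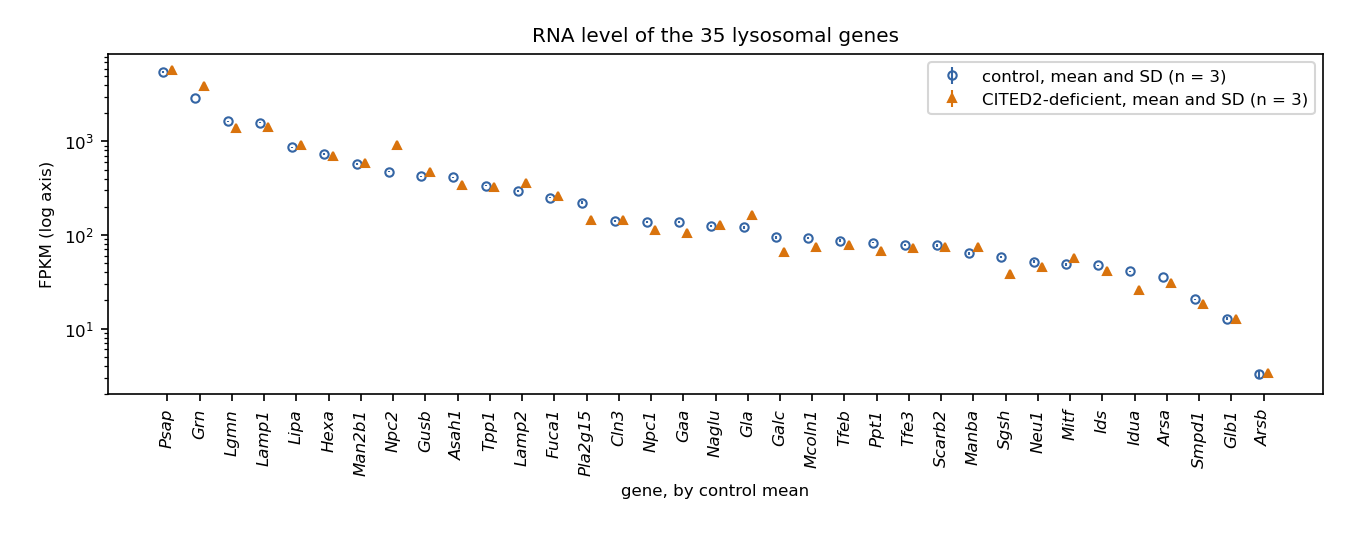
Mean FPKM (log y axis) of the 35 genes in control and CITED2-deficient BMDMs, ordered by the control mean, with SD bars (n = 3) that are mostly smaller than the symbols. Levels run from *Arsb* at 3.26 to *Psap* at 5516 FPKM in control, and *Npc2* shows the widest gap between the genotypes.

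The MiT/TFE factors changed by small amounts and not in one direction, and only *Mitf* kept its call under every alternative run. After median-ratio scaling *Tfeb* was at -0.063 and *Tfe3* at -0.006, neither past the threshold. *Tfeb* (ENSMUSG00000023990, chr17:47737030-47792419), the best known activator of lysosomal genes, had 85.2, 90.6 and 84.6 FPKM in control replicates 1 to 3 and 70.5, 79.2 and 82.4 in deficient replicates 1 to 3. The highest deficient library lay just below the lowest control library, and *Tfeb* was lower (log2 fold change -0.17, SE 0.057, adjusted p = 0.0374). *Tfe3* (ENSMUSG00000000134, chrX:7762560-7775202), a close relative that acts on many of the same genes, had 79, 76.4 and 78.7 FPKM in control replicates 1 to 3 and 71.3, 72 and 73.7 in deficient replicates 1 to 3. All deficient values lay below all control values, with log2 fold change -0.11, SE 0.033, adjusted p = 0.0217. *Mitf* (ENSMUSG00000035158, chr6:97807052-98021349), the melanocyte, osteoclast and macrophage member of the family, moved the other way. Its levels were 50.3, 47.4 and 47.8 FPKM in control replicates 1 to 3 and 56.6, 58 and 56.4 in deficient replicates 1 to 3. The deficient libraries were all above the control libraries (log2 fold change 0.23, SE 0.038, adjusted p = 0.00095). The *Tfeb* call was lost when control replicate 1, 2 or 3 or deficient replicate 1 was left out (adjusted p of 0.0576 to 0.119 in limma), and the *Tfe3* call when control replicate 1 or 3 or deficient replicate 1 or 2 was left out (adjusted p of 0.0543 to 0.0735), whereas *Mitf* kept its call in each of these fits.

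Promoters were read to show which of these genes carry the E-box that the MiT/TFE factors bind. RefSeq gave a promoter of 300 bases (250 before to 50 after the start site, GRCm38.p6, the same assembly as mm10) for 33 of the 35 genes, not for *Asah1* and *Npc1*. The palindrome CACGTG, which reads the same on both strands and is also bound by other basic helix-loop-helix proteins, stood in 10 of the 33 (30.3%), in 8.09% of the 27025 genes with a promoter entry, in 12.1% of the 8754 tested genes with one, and in 24 of 97 related lysosomal genes (24.7%, lists below). The longer form GTCACGTG or its reverse complement CACGTGAC, each of which holds CACGTG, stood in 9 of the 33 (27.3%) against 2.55% of all and 5.08% of tested genes. By response, CACGTG was in 1 of the 8 genes that rose (*Gla*), in 6 of the 16 with an entry that fell (*Lamp1*, *Mcoln1*, *Arsa*, *Sgsh*, *Gaa*, *Lgmn*) and in 3 of the 9 that did not pass the test (*Cln3*, *Glb1*, *Naglu*). A match describes letters and no binding was measured.

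The stretches around the motifs are printed for 6 genes that cover the range of responses: *Lamp1* with the most motifs, *Mcoln1*, *Gaa* and *Sgsh* among genes that fell, *Naglu* among genes that did not pass and *Gla* as the gene that rose. All are 5′ to 3′ in the direction of transcription with CACGTG in capitals, and the motif lies before the RefSeq start site in each. Distances are from that site, which can lie inside the gene coordinates of GENCODE (given below for all of these genes but *Naglu*). This is so for *Mcoln1*, *Gaa*, *Sgsh*, *Naglu* and *Gla*. The second motif of *Mcoln1* and the motif of *Naglu* fall within those coordinates, and the motif of *Sgsh* spans their edge. *Lamp1* is shown from chr8:13159088-13159160 (plus strand), with 4 motifs starting 61, 45, 28 and 15 bases before the start, and *Mcoln1* from chr8:3500436-3500491 (plus), with motifs at 71 and 45 bases. *Gaa* is from chr11:119267811-119267840 (plus, 140 bases before), *Sgsh* from chr11:119355522-119355551 (minus, 29 bases), *Naglu* from chr11:101070009-101070038 (plus, 73 bases) and *Gla* from chrX:134601182-134601244 (minus, 227 and 194 bases).
*Lamp1*: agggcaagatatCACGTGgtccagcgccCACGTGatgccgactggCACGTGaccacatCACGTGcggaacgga
*Mcoln1*: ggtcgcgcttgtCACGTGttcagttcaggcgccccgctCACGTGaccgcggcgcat
*Gaa*: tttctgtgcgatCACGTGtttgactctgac
*Sgsh*: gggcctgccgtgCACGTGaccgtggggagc
*Naglu*: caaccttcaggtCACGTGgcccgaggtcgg
*Gla*: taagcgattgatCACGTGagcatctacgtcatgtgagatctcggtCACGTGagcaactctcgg
Of these 6 genes, *Lamp1* has the motif nearest to its start and *Gla* the one farthest from it.

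**Figure D4:**
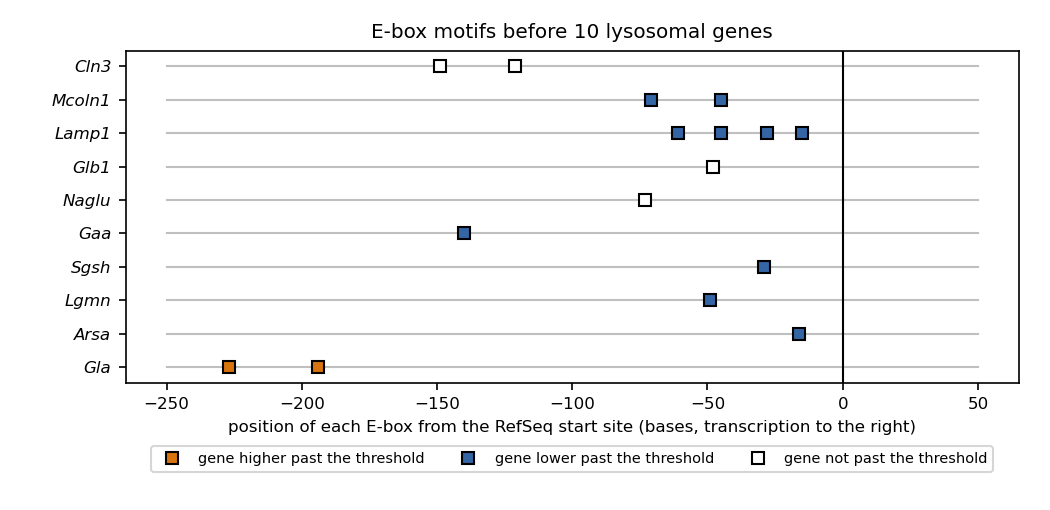
Position of each CACGTG motif (squares) in the promoters of the 10 lysosomal genes that hold one, in bases from the RefSeq start site (x axis). Grey lines show the stretch searched, and color gives the response of the gene (orange higher, blue lower, open not past the threshold), with 4 motifs for *Lamp1* and 2 each for *Cln3*, *Mcoln1* and *Gla*.

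Among the 6 lysosomal membrane proteins, 1 rose, 3 fell and 2 did not pass, beside 16.7% higher and 34.6% lower over all genes tested. After median-ratio scaling 2 rose and 2 fell, beside 2696 higher and 2490 lower of all 11687 genes tested. The 2 abundant LAMP glycoproteins, which line the inner face of the lysosomal membrane, moved in opposite directions. *Lamp1* (ENSMUSG00000031447, chr8:13159161-13175338) had 1582, 1609.7 and 1553 FPKM in control replicates 1 to 3 and 1411, 1418 and 1434 in deficient replicates 1 to 3. *Lamp2* (ENSMUSG00000016534, chrX:38401357-38456454), whose isoforms include the receptor of chaperone-mediated autophagy, had 286, 303 and 292 FPKM in control replicates 1 to 3 and 360.3, 367 and 362 in deficient replicates 1 to 3. Both genes separated the genotypes completely, *Lamp1* with a lower level (log2 fold change -0.15, SE 0.025, adjusted p = 0.000797) and *Lamp2* with a higher level (log2 fold change 0.30, SE 0.029, adjusted p = 2.8e-05). After median-ratio scaling *Lamp1* was at -0.05 and no longer past the threshold (adjusted p = 0.195 in limma). *Mcoln1* (ENSMUSG00000004567, chr8:3500457-3515232), the TRPML1 channel that releases calcium from the lysosome, had 93.2, 89.5 and 95.1 FPKM in control replicates 1 to 3 and 72.3, 71.4 and 79 in deficient replicates 1 to 3. All its deficient values were below control (log2 fold change -0.32, SE 0.046, adjusted p = 0.00041). *Npc1* on chromosome 18, which exports cholesterol from the lysosome, had 136, 135 and 141 FPKM in control replicates 1 to 3 and 112, 114 and 116 in deficient replicates 1 to 3. It fell by a similar amount (log2 fold change -0.27, SE 0.032, adjusted p = 0.000136), and it overlaps *Rmc1* on the other strand, a gene with a mean of 25.8 FPKM. *Scarb2*, the membrane protein that carries glucocerebrosidase to the lysosome, was at 77.3 ± 2.28 and 75 ± 0.984 FPKM (log2 fold change -0.042, 95% interval -0.12 to 0.036). *Cln3*, the protein lost in juvenile Batten disease, was at 142 ± 3.6 and 144 ± 2.68 FPKM (0.02, interval -0.051 to 0.092), and overlaps *Apobr* on the other strand, whose mean of 110 FPKM is close to its own.

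*Npc2* had the largest rise of the 35 genes under every alternative run, and *Grn* rose by about as much as *Gla*. *Npc2* (ENSMUSG00000021242, chr12:84754562-84773152), the soluble protein that hands cholesterol to NPC1, had 470.4, 487 and 471 FPKM in control replicates 1 to 3 and 906, 905 and 913 in deficient replicates 1 to 3. The deficient libraries were all close to 1.91 times the control mean, and this was the most pronounced change of the 35 genes (log2 fold change 0.93, SE 0.025, adjusted p = 7.55e-09). Its level rose while that of its membrane partner *Npc1* fell. *Grn* (ENSMUSG00000034708, chr11:102430315-102437048), which encodes progranulin, a secreted and lysosomal protein cut into granulins, had 2868, 2919 and 2908 FPKM in control replicates 1 to 3 and 3872, 3964 and 3958 in deficient replicates 1 to 3. The groups did not overlap (log2 fold change 0.44, SE 0.024, adjusted p = 8.07e-07). With quantile normalization the log2 fold change of *Grn* was 0.28, more than 1.5 times smaller, and below those of *Gla* (0.46) and *Lamp2* (0.36). *Psap*, the precursor of the saposins that present sphingolipids to their hydrolases, was at 5519.7, 5641 and 5389 FPKM in control and 5689, 5692 and 5879 in deficient libraries. These did not overlap, but the difference of 0.061 did not pass the test (adjusted p = 0.104 in limma, 95% interval -0.003 to 0.125). In limma-voom on recovered fragments, an alternative added after seeing the data, *Psap* was past the threshold at the same fold change (adjusted p = 0.00936).

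Of the 8 sphingolipid and ganglioside hydrolases, 6 fell, 1 rose and 1 did not pass, with a median log2 fold change of -0.176, beside 34.6% lower and 16.7% higher over all genes tested. After median-ratio scaling 2 (*Galc* and *Asah1*) were lower and 1 (*Gla*) was higher past the threshold. That scaling gave 2490 lower and 2696 higher of all 11687 genes tested. *Gla* (ENSMUSG00000031266, chrX:134588149-134601125), the alpha-galactosidase lost in Fabry disease, was the one that rose. Its levels were 118, 126 and 118 FPKM in control replicates 1 to 3 and 159, 166 and 166 in deficient replicates 1 to 3. With log2 fold change 0.44, SE 0.037, adjusted p = 1.25e-05 it stood apart from the other members of its role. *Galc* (ENSMUSG00000021003, chr12:98202294-98259459), which removes galactose from galactosylceramide and is lost in Krabbe disease, had 92.9, 97.4 and 92.5 FPKM in control replicates 1 to 3 and 63.8, 66.3 and 64.9 in deficient replicates 1 to 3. It fell most in this role (log2 fold change -0.53, SE 0.035, adjusted p = 2.64e-06). *Asah1* (ENSMUSG00000031591, chr8:41340197-41374773), the acid ceramidase, had 406, 420.4 and 411 FPKM in control replicates 1 to 3 and 334, 359.9 and 344 in deficient replicates 1 to 3. Its deficient libraries were all below control (log2 fold change -0.25, SE 0.033, adjusted p = 0.000202).

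The other falls in this role were smaller. *Arsa*, which removes sulfate from sulfatide, went from 35.7 ± 0.292 to 31 ± 0.0762 FPKM (log2 fold change -0.20), *Neu1*, the lysosomal sialidase, from 51.8 ± 1.66 to 45.2 ± 1.81 (-0.19), *Smpd1*, the acid sphingomyelinase, from 20.5 ± 0.123 to 18.3 ± 1.12 (-0.16), and *Hexa*, the alpha subunit of beta-hexosaminidase, from 732 ± 10.5 to 693 ± 4.96 (-0.08). After median-ratio scaling *Hexa* was at 0.023, on the other side of 0 (adjusted p = 0.522 in limma), and *Arsa*, *Neu1* and *Smpd1* were still below 0 but not past the threshold. The *Smpd1* call was also lost without control replicate 1, 2 or 3 or deficient replicate 2 or 3 (adjusted p of 0.0713 to 0.107), and the *Hexa* call without control replicate 2 or 3 or deficient replicate 3 (0.0595 to 0.0715). *Glb1*, the beta-galactosidase that acts on gangliosides, was at 12.8 ± 0.462 and 12.7 ± 0.183 FPKM (-0.009, 95% interval -0.133 to 0.114), and it overlaps *Tmppe* on the same strand, with a mean of 7.88 FPKM.

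Of the 6 glycosaminoglycan hydrolases, 3 fell, 1 rose and 2 did not pass, beside 34.6% lower and 16.7% higher over all genes tested. After median-ratio scaling 3 fell and 2 rose, beside 2490 lower and 2696 higher of all 11687 genes tested. Heparan sulfate is a substrate of the 3 that fell, of *Gusb*, which rose, and of *Naglu*, which did not pass. *Idua* (ENSMUSG00000033540, chr5:108660331-108684557), the alpha-L-iduronidase, had 41, 41.5 and 40.5 FPKM in control replicates 1 to 3 and 24.3, 27.1 and 25.5 in deficient replicates 1 to 3. All deficient values lay far below all control values, and the fall was close in size to that of *Pla2g15* (log2 fold change -0.66, SE 0.047, adjusted p = 4.69e-06). *Idua* overlaps *Dgkq* on the other strand, a gene with a mean of 7.47 FPKM. *Sgsh* (ENSMUSG00000005043, chr11:119343425-119355536), the sulfamidase, had 59, 59.6 and 55.9 FPKM in control replicates 1 to 3 and 38.4, 38.4 and 39.1 in deficient replicates 1 to 3. Its groups were far apart (log2 fold change -0.58, SE 0.039, adjusted p = 2.83e-06). *Ids*, the iduronate sulfatase, fell less, from 47.3 ± 0.843 to 40.8 ± 1.03 FPKM (log2 fold change -0.21). *Gusb*, the beta-glucuronidase, rose from 422 ± 7.05 to 467 ± 6.48 FPKM (0.15). *Naglu*, the alpha-N-acetylglucosaminidase, was at 124 ± 3.22 and 128 ± 2.85 FPKM (0.051, 95% interval -0.023 to 0.125). *Arsb*, a sulfatase of dermatan and chondroitin sulfate, had the widest interval of the 35 genes, from -0.197 to 0.271, at the lowest level.

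The glycosidases of glycogen and glycoproteins had 1 fall, 1 rise and 2 without a call, beside 34.6% lower and 16.7% higher over all genes tested. After median-ratio scaling they had 1 fall and 3 rises, beside 2490 lower and 2696 higher of all 11687 genes tested. *Gaa* (ENSMUSG00000025579, chr11:119267887-119285454), the acid alpha-glucosidase that degrades glycogen, had 134, 141 and 135 FPKM in control replicates 1 to 3 and 108, 98.8 and 108 in deficient replicates 1 to 3. Deficient replicate 2 was the lowest, and all 3 were below control (log2 fold change -0.38, SE 0.042, adjusted p = 7.29e-05). *Manba*, the beta-mannosidase, rose from 63.5 ± 2.11 to 74.3 ± 2.98 FPKM (log2 fold change 0.23). The alpha-fucosidase *Fuca1* (249 ± 3.11 and 259 ± 7.37 FPKM, 0.057) and the alpha-mannosidase *Man2b1* (572 ± 17.1 and 584 ± 8.13 FPKM, 0.03) did not pass, with overlapping libraries.

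The 2 lipases moved apart. *Pla2g15* (ENSMUSG00000031903, chr8:106150399-106164715), the lysosomal phospholipase, had 211, 230 and 221 FPKM in control replicates 1 to 3 and 144, 146 and 139 in deficient replicates 1 to 3. The highest deficient library was well below the lowest control library, and the fall and that of *Idua* lay within their standard errors of each other (log2 fold change -0.62, SE 0.037, adjusted p = 1.38e-06). *Pla2g15* fell more than *Idua* with quantile normalization (-0.61 and -0.60) and without CITED2-deficient replicate 1 (-0.63 and -0.62). *Lipa*, the acid lipase that frees cholesterol and fatty acids from the lipids of lipoproteins, went from 864 ± 16.1 to 913 ± 12.3 FPKM (0.079, adjusted p = 0.0303 in limma). The *Lipa* call was lost without control replicate 1 or 3 or deficient replicate 1 or 2 (adjusted p of 0.054 to 0.121) and with a replicate block (adjusted p = 0.0527).

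Of the peptidases and the thioesterase, 2 fell and 1 did not pass, beside 34.6% lower and 16.7% higher over all genes tested. *Ppt1* (ENSMUSG00000028657, chr4:122836242-122859175), which removes palmitate from proteins and is lost in infantile Batten disease, had 83, 83.8 and 82.2 FPKM in control replicates 1 to 3 and 68.3, 69.3 and 65 in deficient replicates 1 to 3. Its deficient values were all below control (log2 fold change -0.29, SE 0.035, adjusted p = 0.00013), and it overlaps *Cap1* on the other strand, whose mean of 525 FPKM is several times its own. The library kit kept the strand, but the sources used here do not give the strand setting of the counting. *Lgmn*, the asparaginyl endopeptidase that processes cathepsins, fell from 1644 ± 15.1 to 1397 ± 42.6 FPKM (log2 fold change -0.24). *Tpp1*, a tripeptidyl peptidase, was at 337 ± 6.49 and 323 ± 3.93 FPKM. Its libraries did not overlap, but its difference of -0.061 did not pass (adjusted p = 0.0864 in limma), and it was 0.042 after median-ratio scaling.

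The summed RNA level of the 32 genes other than the transcription factors was higher in each deficient library than in each control library. It was 17451, 17823 and 17415 FPKM in control replicates 1 to 3 and 18553, 18696 and 18931 in deficient replicates 1 to 3, which is 2.6 to 2.64% and 2.79 to 2.86% of all FPKM. *Psap* alone gave 30.4 to 31.7% of the sum in every library. Without *Psap* the sum was 11931 to 12182 FPKM in control and 12864 to 13053 in deficient libraries. Without median-ratio scaling, the direction rested on *Grn* and *Npc2*. Without these and *Psap*, the sum of the other 29 genes was 8592 to 8776 FPKM in control and 8086 to 8181 in deficient libraries, lower in each deficient library. These sums are of FPKM without median-ratio scaling, which raised the median log2 fold change of all genes by 0.0938. A shift of that size is enough to close the gap of the 29 genes between the genotypes. The direction of their sum after that scaling was not tested.

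Other genes of the lysosome were listed by function, and of the 126 tested, 22 rose, 61 fell and 43 did not pass (65.9% called against 51.3% of all genes tested), with a median log2 fold change of -0.106. Under median-ratio scaling 36 rose and 38 fell, and the balance of rises and falls in each list is given under both scalings. Over all 11687 genes tested, 16.7% were higher and 34.6% lower without that scaling. With it, 2696 of these genes were higher and 2490 lower. Of 18 other hydrolases and activators, 7 rose and 5 fell (11 and 4 after median-ratio scaling). *Hgsnat*, the acetyltransferase of heparan sulfate breakdown in the lysosomal membrane, went from 600.1 ± 15.3 to 248 ± 1.33 FPKM (log2 fold change -1.27). *Arsg*, another heparan sulfatase (-0.78), and *Naaa*, an amidase of fatty acid ethanolamides (-0.50), also fell, while *Galns*, a sulfatase of keratan sulfate (0.55), *Gm2a*, the ganglioside activator (0.32), and the hyaluronidase *Hyal2* (0.26, with overlapping libraries) rose. Of 27 other membrane proteins and transporters tested, 6 rose and 11 fell (8 and 10 after median-ratio scaling). The peptide and histidine transporter *Slc15a3* rose from 125 ± 2.2 to 230.1 ± 5.7 FPKM (0.88), followed by the nucleoside transporter *Slc29a3* (0.67) and *Mfsd12* (0.54), and the largest falls were those of the cation channel *Tpcn1* (-0.71), the metal transporter *Slc11a1* (486 ± 3.07 to 305 ± 7.58 FPKM, -0.67) and the cystine exporter *Ctns* (-0.52).

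The proton pump and the sorting machinery also moved in both directions. Of 18 subunits of the V-ATPase, the pump that acidifies lysosomes, 4 rose and 9 fell, but 7 rose and 6 fell after median-ratio scaling. The membrane subunit isoform *Atp6v0a2* rose (0.54) while its counterpart *Atp6v0a1*, with 266 ± 1.99 FPKM in control the more abundant of the pair, fell (-0.49). *Atp6v0d2* (0.36) and *Atp6v0c* (0.20) rose, and *Atp6v1g2* (-0.50) and *Atp6v0b* (-0.41) fell. Of 18 genes of mannose 6-phosphate tagging and sorting, 2 rose and 11 fell (4 and 8 after median-ratio scaling). The 2 that rose were *Igf2r*, the larger mannose 6-phosphate receptor (72.2 ± 1.44 to 107 ± 1.08 FPKM, 0.56), and *Gnptab*, a subunit of the phosphotransferase that makes the tag (0.41). *Sort1*, the sorting receptor sortilin (-0.79), *Ap1b1*, a subunit of the clathrin adaptor AP-1 (-0.74), and the retromer subunit *Vps35* (-0.32) had the largest falls.

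Among 24 tested genes of the lysosomal control of TFEB, TFE3 and MITF, 3 rose and 13 fell, but 5 rose and 5 fell after median-ratio scaling. *Flcn*, which with its partners lets the kinase mTORC1 phosphorylate these factors, went from 109 ± 3.61 to 70.9 ± 3.63 FPKM (log2 fold change -0.61), and the Ragulator subunit *Lamtor4* (-0.64) and the GTPase *Rragd* (-0.33) also fell. *Rptor*, the substrate-binding subunit of mTORC1 (0.35), the GTPase *Rraga* (0.15) and the calcineurin subunit *Ppp3ca* (0.15) rose. Of 21 genes for lysosome positioning and fusion (BLOC-1-related, HOPS and CORVET complexes), 12 fell and 9 did not pass, with the largest falls for *Borcs6* (-0.51), *Vps33a* (-0.37) and *Snapin* (-0.30). After median-ratio scaling 5 of the 21 were lower and 1 was higher.

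**Figure D5:**
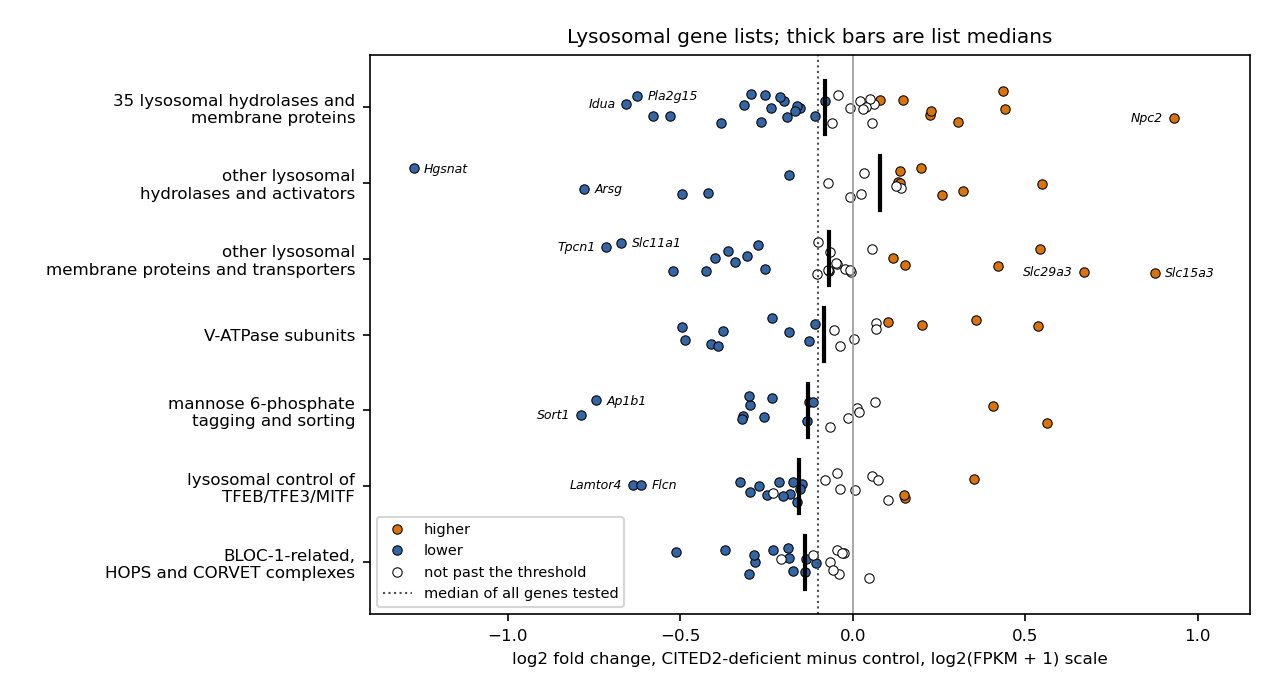
Log2 fold change (x axis, deficient minus control on the log2(FPKM + 1) scale) of each gene in the 35 lysosomal genes and in 6 related lists. Orange points rose, blue points fell and open points did not pass; bars are list medians, the dotted line is the median of all genes tested at -0.101, and *Hgsnat* at -1.27 and *Npc2* at 0.93 lie at the extremes.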

How the data were processed

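RNAseq was measured in 3 control and 3 CITED2-deficient BMDM libraries. The authors depleted ribosomal RNA, made stranded libraries, mapped reads to mm10 with STAR and deposited 1 Cuffdiff FPKM value per gene and library with the GENCODE annotation, without pooling replicates. The sources used here give no tool versions, annotation release or strand setting of the counting. FPKM are scaled by gene length and library size, so strongly changed abundant genes can shift the others.

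The 11687 genes whose mean FPKM was 1 or more were tested on log2(FPKM + 1), a pseudocount of 1, with limma 3.58.1 in R 4.3.3, using a variance trend, Benjamini-Hochberg adjustment over all genes tested and a threshold of 0.05 with no fold threshold. The test was checked on simulated data. An exact permutation test of 3 against 3 libraries cannot give a p below 0.1. Values are means ± SD (n = 3). Fragments were recovered with GENCODE vM21 transcript lengths; 21374 of 22239 matched genes (96.1%) were whole within 0.02 in all 6 libraries, and limma-voom was run on them as an alternative added after seeing the data, calling 1988 genes higher and 4190 lower. Replicates differed by more than sampling noise (mean chi-square per gene 2.31 to 6.41), so each counted as 1 sample. Coordinates are mm10 (GENCODE vM21), and promoters come from RefSeq (GRCm38.p6).

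All 35 genes are named by role. Values in every library are given for those that passed the threshold, had no overlap between groups and had an absolute log2 fold change of at least 0.25, and for *Tfeb*, *Tfe3*, *Mitf*, *Lamp1* and *Lamp2*. Of each related list the 3 largest rises and falls are named. Rank and overlap examples, *Cited2*, marker examples and *Psap*'s values by library stand outside this rule, and *Psap* was added after its values were seen. Members and lists were chosen with earlier results of these data known. Alternatives were another pseudocount (0.1), no filter or a mean FPKM of 5 or more, median-ratio scaling, quantile normalization, no trend, a replicate block and each library left out.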

Additional observations from a re-analysis of the deposited data

How the results depend on the processing

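Of the results for single lysosomal genes under the alternatives, 433 kept their direction and side of the threshold, 39 lost the call, 8 gained one and 9 changed sign. With median-ratio scaling 13 lysosomal genes were higher and 11 lower, their median log2 fold change was 0.023, and 36 related genes were higher and 38 lower. The same scaling gave *Scarb2* 0.061, *Glb1* 0.087, *Hexa* 0.023 and *Tpp1* 0.042, and quantile normalization gave *Glb1* 0.052 and *Tpp1* 0.014. Only a called *Hexa* changed sign, and the others were not past the threshold on either side. A mean FPKM of at least 5 left out *Arsb* and gave a median of -0.094, from 1 gene fewer. Leaving out each library gave 7 to 8 genes higher, 14 to 16 lower and a median from -0.092 to -0.071. It moved *Glb1* between -0.026 and 0.018, with 0.018 without control replicate 1 and 0.002 without CITED2-deficient replicate 2, and *Arsb* between -0.028 (without control replicate 2) and 0.089. Calls lost on leaving out a library were those of *Hexa*, *Smpd1*, *Lipa*, *Tfeb* and *Tfe3*. No filter on low values lost *Hexa*, *Smpd1*, *Lipa* and *Tfeb* when all 22248 genes were tested together, quantile normalization lost *Smpd1*, *Lipa*, *Tfeb* and *Tfe3*, and no variance trend lost *Hexa*, *Lipa*, *Tfeb* and *Tfe3*. The cause of the other changes was not tested. With a replicate block 7 genes were higher and 18 lower, and *Lipa* was the one call changed. Deviations from the group means in samples with the same number had correlations near 0 (0.0138, 0.00784 and 0.0402). The best partner of CITED2-deficient replicates 1 and 3 was the control of the same number, and that of replicate 2 was control replicate 1. With 3 libraries per group, correlations this small cannot decide whether the numbers pair the libraries. Counting error limits little here except for *Arsb*, with 181 fragments in its lowest library.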

Other observations

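Enzymes that break down heparan sulfate were grouped after their values were seen, so the group is a description with no test of its own. Of the 7 genes described here, 5 fell in CITED2-deficient BMDMs (*Ids* -0.21, *Idua* -0.66, *Sgsh* -0.58, *Hgsnat* -1.27 and *Arsg* -0.78 on the log2 scale), 1 rose (*Gusb* 0.15) and *Naglu* did not pass the test (0.051, adjusted p = 0.224 in limma), beside 34.6% lower and 16.7% higher over all genes tested. After median-ratio scaling 5 were lower and 2 higher, beside 2490 lower and 2696 higher of all 11687 genes tested. *Hgsnat* and *Gusb* were the most abundant of the 7 in control BMDMs. *Gusb* was at 422 FPKM in control and 467 in deficient BMDMs, and *Hgsnat* was at 600.1 and 248 FPKM.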
